A study of Homo sapiens with 2 samples.

Results

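The Krüppel-like factors are transcription factors that bind GC-rich and CACCC-type sequences through a conserved run of zinc fingers at the C-terminal end of the protein. Members that mostly activate transcription (KLF2, KLF4, KLF5 and KLF6) recruit acetyltransferases, KLF3 represses through the CTBP corepressors, and KLF9, KLF10, KLF11, KLF13 and KLF16 carry a domain that binds the SIN3A corepressor. KLF2 and KLF4 are known for their induction through the kinase ERK5 and MEF2 factors, KLF9 for its induction by glucocorticoid and thyroid hormone, and KLF10 and KLF11 for their induction by TGF-beta.

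The 10 members KLF2, KLF3, KLF4, KLF5, KLF6, KLF9, KLF10, KLF11, KLF13 and KLF16 were taken from a fixed list by gene symbol, out of 20046 genes that the array annotation names. They were measured in total RNA of SK-ES1, an established Ewing sarcoma cell line, by Illumina expression BeadChip. The groups were radiation-adapted SK-ES1 cells, whose label carries a value of 4 Gy, and the wild type SK-ES1 cells. Each group held 1 array, and the labels do not state how the dose was given, for how long the cells were passaged or whether the adapted line was a clone. There was therefore no replicate spread, no test and no p-value for any difference given here, and the growth state of either culture cannot be told apart from the effect of adaptation. The comparison asks how radiation-adapted cells differ from the line they came from.

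Of the 10 members, 9 had a probe, 13 probes in all, and no probe was annotated to KLF11. A probe was called detected where its detection p-value, set against the negative controls of its own array, was under 0.01. By that rule 6 members were detected on at least 1 array: KLF2, KLF6, KLF9 and KLF13 on both, KLF3 on the radiation-adapted array alone and KLF10 on the wild type array alone. KLF4, KLF5 and KLF16 were detected on neither, so their signals give only an upper bound. Across the arrays 15399 of 47323 probes (32.5%) were detected in radiation-adapted cells and 15887 (33.6%) in wild type cells, and 10189 genes were detected on at least 1 array. Of 8 Ewing sarcoma markers, 7 had a probe and all 7 were detected on both arrays, among them CD99 and NKX2-2. No probe was annotated to NR0B1, so it was not measured. Ratios are radiation-adapted minus wild type on the log2 scale after background correction and quantile normalization, with an offset of 16 that makes the folds of dim probes smaller than they are.

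The 250 bases upstream of the annotated start are shown for the 4 members detected on both arrays, since the values below rest on these genes. They are RefSeq sequences of GRCh38.p14, written 5′ to 3′ on the strand of the gene, at chr19:16324576-16324825 (plus strand) for KLF2, chr15:31326585-31326834 (plus strand) for KLF13, chr9:70414658-70414907 (minus strand) for KLF9 and chr10:3785210-3785459 (minus strand) for KLF6. Capitals mark, on either strand, the GC box GGGCGG, the CACCC box, the CCAAT box and the MEF2 site.
KLF2: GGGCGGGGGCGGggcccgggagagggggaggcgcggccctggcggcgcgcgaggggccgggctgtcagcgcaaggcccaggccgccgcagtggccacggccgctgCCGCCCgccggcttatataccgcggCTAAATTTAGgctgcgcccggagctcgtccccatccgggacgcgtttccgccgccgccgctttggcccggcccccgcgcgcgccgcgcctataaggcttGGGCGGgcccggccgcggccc
KLF13: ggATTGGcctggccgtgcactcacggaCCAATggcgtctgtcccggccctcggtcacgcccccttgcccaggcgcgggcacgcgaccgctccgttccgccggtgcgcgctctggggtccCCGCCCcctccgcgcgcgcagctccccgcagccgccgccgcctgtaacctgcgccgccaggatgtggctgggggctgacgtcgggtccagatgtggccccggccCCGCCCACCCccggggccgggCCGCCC
KLF9: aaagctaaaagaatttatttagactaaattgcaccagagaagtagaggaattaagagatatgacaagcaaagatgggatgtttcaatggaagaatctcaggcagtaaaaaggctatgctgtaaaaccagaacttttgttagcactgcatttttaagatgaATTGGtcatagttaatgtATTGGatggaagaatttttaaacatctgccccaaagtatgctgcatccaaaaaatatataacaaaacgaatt
KLF6: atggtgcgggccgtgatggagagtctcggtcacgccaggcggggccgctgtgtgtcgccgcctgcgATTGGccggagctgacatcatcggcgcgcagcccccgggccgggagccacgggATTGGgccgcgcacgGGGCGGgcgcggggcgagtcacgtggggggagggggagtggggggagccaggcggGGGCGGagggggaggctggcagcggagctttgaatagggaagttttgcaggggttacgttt

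The KLF2 window held 4 GC boxes and 1 match to the MEF2 site, CTAAATTTAG, whose first base lies 120 bases before the start. MEF2 factors bind such AT-rich sites, and 2.8% of 35116 promoter windows of the same length held a match. Upstream windows were at hand for 8 members (all but KLF3 and KLF10, with the first listed start for KLF5 and KLF11), and KLF2 was the 1 window with a MEF2 match. GC boxes were found in 6 of the 8 windows, against 42.6% of all windows, and CCAAT in KLF6, KLF9 and KLF13, against 32% of all windows. CACCC, the sequence type that the family itself binds, was found in KLF5 and KLF13, against 54.7% of all windows, and in KLF13 it overlaps a GC box by 1 base. TATAAA was found in KLF5 alone, against 10.7% of all windows. No match was found in the 8 windows for the CArG box bound by SRF (1.16% of all windows), the AP-1 site TGANTCA (6.57%), the CRE TGACGTCA (1.65%), the FOXO site GTAAACA (2.98%) or the repeat GGAAGGAA, of the type that the EWSR1-FLI1 fusion binds (3.06%). The GC content of the windows had a median of 75.6% over the 8 members and 58% over all windows, and the KLF9 window stood lowest at 32.4%. A match is a run of letters and not a measured site.

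KLF2 was the 1 member past 2-fold higher in radiation-adapted cells. Its probe gave a raw signal of 604.2 in radiation-adapted cells and 214.6 in wild type cells, with a detection p-value of 0 on both arrays. KLF2 keeps resting endothelial cells and naive lymphocytes in a quiescent state and is also an early response gene in many cells. On the normalized scale its log2 signal was 8.92 in radiation-adapted cells and 6.74 in wild type cells, a log2 ratio of 2.17 or 4.52-fold, which ranked 31 among 10189 detected genes from the highest ratio down. Over all detected genes, 410 were 2-fold or more higher (4.02%) and 211 were 2-fold or more lower (2.07%), and 0.412% were 4-fold or more higher. Of the 6 detected members 1 was past 2-fold higher and 0 past 2-fold lower, so the count rests on KLF2 alone. Both counts were the same with KLF3 and KLF10 at their bounds, where 2.93% of genes were higher and 1.37% lower. By a 1.5-fold rule 3 members were higher (KLF2, KLF3 and KLF13) and 1 lower (KLF10), against 12.5% and 9.59% of genes, but KLF3 and KLF10 pass it by measured ratio alone and not at their bounds, which are given with each gene. Without background correction 108 genes were 2-fold higher and 28 lower. The fold of KLF2 was 2.72 without background correction, 3.67 with an offset of 50 and 4.92 in the authors' processed values, so the direction held and the size depended on how background was handled. KLF2 had no further probe to set beside this one, and in bulk RNA more cells with the transcript and more transcript per cell cannot be told apart.

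**Figure D1:**
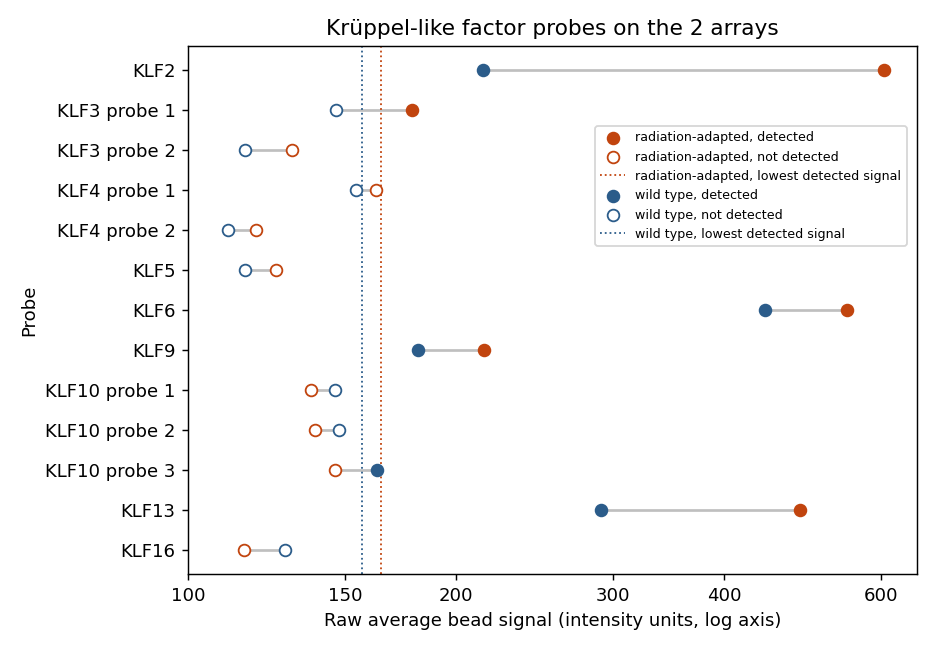
Raw average bead signal (intensity units, log axis) of the 13 Krüppel-like factor probes on the radiation-adapted and wild type arrays; filled points were detected and dotted lines mark the lowest detected signal of each array (164.6 radiation-adapted, 156.9 wild type). KLF2 lies widest apart, at 604.2 in radiation-adapted cells and 214.6 in wild type cells, and levels of different probes are not comparable.

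Of the other mostly activating members, KLF6 was detected on both arrays and KLF4 and KLF5 on neither. KLF6, which is induced by injury and growth signals and was described as a tumour suppressor, gave a raw signal of 549.5 in radiation-adapted cells and 444.5 in wild type cells. Its log2 ratio was 0.33, or 1.26-fold. KLF4, one of the pluripotency reprogramming factors, gave its brighter probe 162.6 in radiation-adapted cells and 154.4 in wild type cells, with detection p-values of 0.01039 in radiation-adapted cells and 0.01299 in wild type cells that lie just outside the threshold of 0.01. At a threshold of 0.05 KLF4 counted as detected, with a log2 ratio of 0.13. The other KLF4 probe gave 119.2 in radiation-adapted cells and 110.9 in wild type cells. KLF5, a factor of proliferating epithelium, gave 125.5 in radiation-adapted cells and 115.9 in wild type cells, both under the lowest detected signals of 164.6 on the radiation-adapted array and 156.9 on the wild type array.

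KLF13 stood just under the size rule. Its raw signal was 486.1 in radiation-adapted cells and 290.9 in wild type cells, a log2 ratio of 0.98 or 1.97-fold, and it ranked 442 from the top. KLF13 is known in T cells, where it binds the CCL5 promoter. CCL5, on the list of reported targets, gave 218.2 in radiation-adapted cells and 171.4 in wild type cells, a log2 ratio of 0.71. With scaling to equal medians in place of quantiles KLF13 reached 2.01-fold, and without background correction it stood at 1.60-fold, so whether it counts as 2-fold depended on the processing.

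KLF9, the hormone-responsive member, gave 214.9 in radiation-adapted cells and 181.1 in wild type cells, detected on both arrays, with a log2 ratio of 0.45 or 1.36-fold. Among 5 other glucocorticoid-responsive genes 3 were detected, and they lay on both sides of 0. SGK1, a kinase gene, was 2.26-fold higher, with 1151.8 in radiation-adapted cells and 561.1 in wild type cells, and its other 2 detected probes had log2 ratios of 1.12 and 1.35. FKBP5, a chaperone of the glucocorticoid receptor, was 2.17-fold lower, with 358.2 in radiation-adapted cells and 620.4 in wild type cells, and at -0.84, under 2-fold, without background correction. TSC22D3 was at -0.63. The glucocorticoid receptor gene NR3C1 and the thyroid hormone receptor gene THRB were not detected, and the thyroid hormone receptor gene THRA was at 0.04.

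KLF10 was the 1 detected member with a lower signal in radiation-adapted cells. Its brightest probe gave 146.2 in radiation-adapted cells, where it was not detected, and 163.1 in wild type cells, where the detection p-value was 0.0039. The measured log2 ratio was -0.66, but against the lowest detected signal of the radiation-adapted array KLF10 was at least 1.06-fold lower, a bound with no allowance for measurement error. The other 2 probes were detected on neither array. They gave 137.5 and 138.9 in radiation-adapted cells and 146.1 and 147.8 in wild type cells, differences of -8.6 and -8.9 units. The brightest probe differed by -16.9 units. Signals detected on neither array give no direction, so these 2 probes do not back the brightest one. KLF16, of the same SIN3A-binding kind, gave 115.5 in radiation-adapted cells and 128.6 in wild type cells and was not detected. Of the TGF-beta receptors and SMADs upstream of KLF10, 4 of 5 were detected and none passed 2-fold. SMAD3 was farthest from 0 at 0.69, with 376.2 in radiation-adapted cells and 264.8 in wild type cells.

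KLF3, the CTBP-dependent repressor, was detected in radiation-adapted cells alone. Its brighter probe gave 178.3 in radiation-adapted cells and 146.4 in wild type cells, where the detection p-value was 0.02987. The measured log2 ratio was 0.80, and as a bound KLF3 was at least 1.34-fold higher. The second KLF3 probe gave 130.7 in radiation-adapted cells and 115.9 in wild type cells and was not detected on either array. The antisense gene KLF3-AS1 gave 141.5 in radiation-adapted cells and 133.5 in wild type cells and was also not detected.

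**Figure D2:**
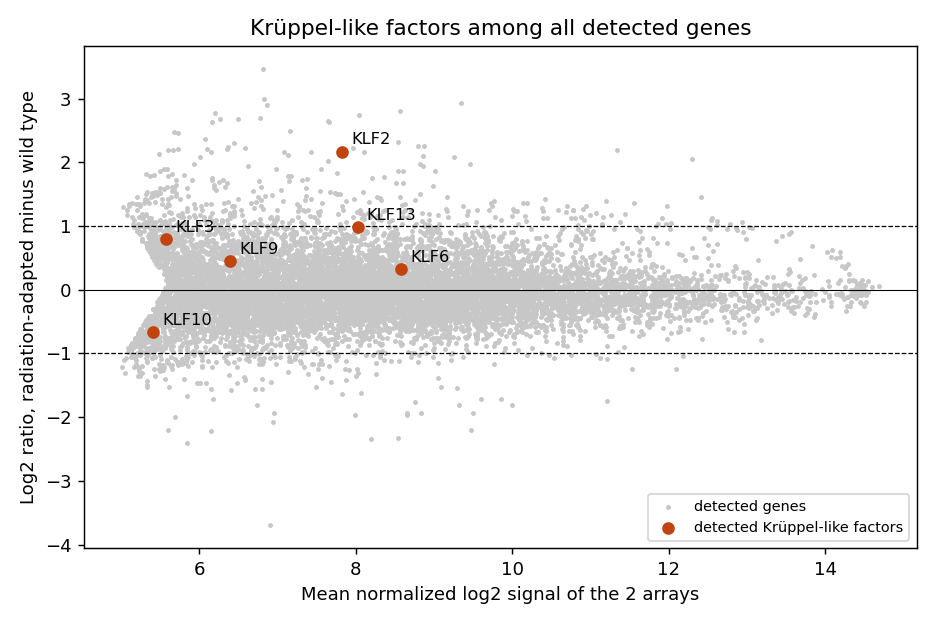
Log2 ratio of each of 10189 detected genes (vertical axis, radiation-adapted minus wild type) against the mean normalized log2 signal of both arrays (horizontal axis); dashed lines mark 2-fold. Of the marked members, KLF2 (2.17) is the 1 outside the lines, KLF13 (0.98) lies on the upper one, and KLF3 and KLF10 lie in the dim range where genes detected on 1 array form a wedge.

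Across the 6 detected members the log2 ratios ran between -0.66 and 2.17, with a median of 0.62, or 0.44 with KLF3 and KLF10 at their bounds. The median over all detected genes was -0.04. The median of the 6 was 0.25 without background correction and 0.39 with an offset of 50, and over all 9 members with a probe, detected or not, it was 0.33. The 4 members detected on both arrays lay above 0. Of all detected genes 46.6% did, a share that also counts genes detected on 1 array. KLF3 and KLF10 passed the detection filter through the array where each was higher, so their directions are not counted, and the detected members do not stand for all 10. The closest thing to a repeat measurement on these arrays is a further probe of the same gene. Over 2567 genes with 2 or more detected probes, the ratios of the brightest and the next brightest probe differed by an SD of 0.466, which comes to 0.329 for the ratio of 1 probe if both vary alike. This SD holds isoform differences and no spread between cultures.

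**Figure D3:**
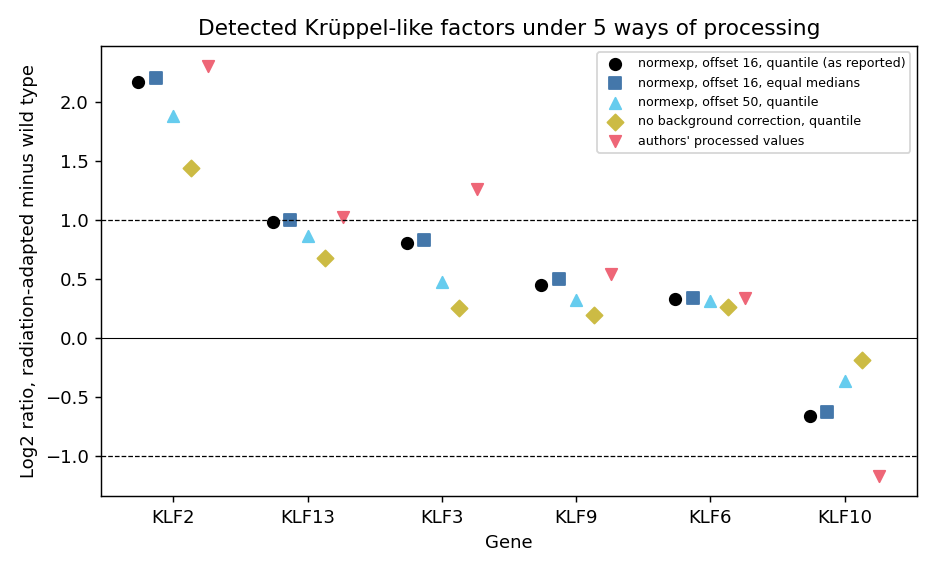
Log2 ratio (radiation-adapted minus wild type) of the 6 detected Krüppel-like factors under 5 ways of processing the same 2 arrays; dashed lines mark 2-fold. KLF2 stays above the upper line throughout (1.44 to 2.30), while KLF3 ranges between 0.25 and 1.26 and KLF10 between -1.17 and -0.19.

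Of 8 further Krüppel-like factors outside the list, 7 had a probe and KLF15 was the 1 detected. KLF15, a regulator of gluconeogenesis and of muscle and fat metabolism, gave 221.4 in radiation-adapted cells and 161.1 in wild type cells, a log2 ratio of 1.03 or 2.05-fold, just inside the 2-fold rule. It was at 0.41 without background correction and at 0.70 with an offset of 50. KLF1, KLF7, KLF8, KLF12, KLF14 and KLF17 were not detected. Of 9 SP factors, the nearest relatives of the family, 5 were detected (4 on both arrays), with 1 above 0 and none past 2-fold. That one was SP2, with 384.3 in radiation-adapted cells and 273.9 in wild type cells (0.66). SP6 passed the detection filter through the wild type array, where it was higher, so its direction carries no weight. The median was -0.22, or -0.16 with SP6 at its bound. SP4 was at -0.22 with its other detected probe at 0.05, so its direction is uncertain.

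Among the genes of cofactors and ubiquitin ligases 1 was past 2-fold, the corepressor gene SIN3B. Of 9 corepressor genes 7 were detected, 4 above 0, with a median of 0.13. SIN3B, which encodes a scaffold of histone deacetylase complexes, was 2.16-fold higher, with 306.7 in radiation-adapted cells and 194.7 in wild type cells, while SIN3A was at 0.18. The log2 ratio of SIN3B was 0.59 without background correction and 0.88 with an offset of 50, both under 2-fold. CTBP2 was at 0.69 and CTBP1 at 0.13, but the other 2 detected probes of CTBP1 had ratios of -0.22 and 1.45, so its direction is uncertain. HDAC1, HDAC2 and HDAC3 were at -0.40, -0.36 and -0.28. Of 4 acetyltransferase genes 3 were detected, none past 2-fold, with EP300 at 0.41, CREBBP at 0.13 with its other detected probe at 0.88, and KAT2A at -0.09. All 5 ubiquitin ligase genes with reported KLF substrates were detected and none passed 2-fold, with SMURF1 farthest at 0.82 and a list median of 0.11.

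Genes of the pathways upstream of KLF2 were also examined. Of 10 genes of the MEK5, ERK5, MEF2 and FOXO pathways 9 had a probe and 6 were detected. None passed 2-fold, and the median was 0.10. MEF2D, whose protein binds MEF2 sites, was farthest from 0, with 451.4 in radiation-adapted cells and 289.3 in wild type cells (0.85). MAPK7, which encodes ERK5, was at 0.51 with its other detected probe at 0.80, and its activating kinase gene MAP2K5 was at 0.08. Below 0 lay MAP3K3, a kinase gene upstream of MEK5, at -0.60 with its other detected probe at -0.65, and FOXO1 at -0.31. MEF2A, MEF2B and MEF2C were not detected. Of 5 genes for serum response factor and its cofactors 4 were detected and none passed 2-fold. SRF gave 1371.1 in radiation-adapted cells and 791.9 in wild type cells (0.85), while its cofactor genes ELK1, MRTFA and MRTFB were at 0.30, -0.23 and -0.16.

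**Figure D4:**
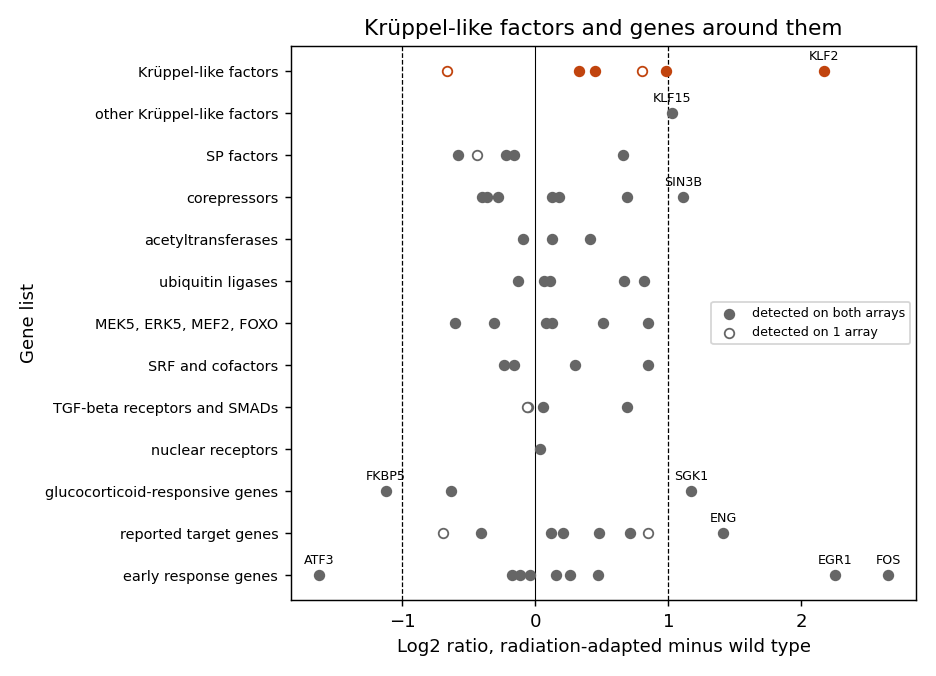
Log2 ratio (horizontal axis, radiation-adapted minus wild type) of the detected genes of the Krüppel-like factor list and of 12 lists of related genes; open points were detected on 1 array and dashed lines mark 2-fold. Genes past 2-fold are named, and they fall in 5 of the 12 related lists.

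Other early response genes lay on both sides of 0. Of 14 on the list 9 were detected, 5 above 0, with 2 past 2-fold higher, 1 past 2-fold lower and a median of 0.16. FOS gave 621.2 in radiation-adapted cells and 187.9 in wild type cells (6.30-fold higher), and EGR1 gave 1090.9 in radiation-adapted cells and 308.3 in wild type cells (4.76-fold higher). ATF3 gave 270.8 in radiation-adapted cells and 576.3 in wild type cells (3.08-fold lower). JUN was at 0.47, IER2 at -0.17, ZFP36 at -0.11 and MYC at -0.04. These lists were drawn up with results of the same arrays known and are not independent evidence.

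KLF2 also marks endothelial cells and lymphocytes, so markers of other cells were read beside it. Of 6 endothelial markers PECAM1, VWF, CDH5, KDR and TEK were not detected on either array, and EMCN was at -0.01. Of 6 leukocyte markers, 2 were detected, LYZ and CORO1A, in wild type cells and not in radiation-adapted cells, while PTPRC, CD3E and CD14 were not detected. Of 6 epithelial markers EPCAM (-0.18) and MUC1 (-0.31) were detected. Of 6 fibroblast markers 4 were detected, their median ratio was 0.23, and COL1A2 was at 1.10 with its other detected probe at -0.06. Most small and ribosomal RNAs had measured ratios of the same sign as KLF2. Of 125 detected, 108 lay above 0, against 46.6% of all detected genes. The median of the 125 was 0.71, against -0.04 over all detected genes. Only 83 of the 125 were detected on both arrays. The directions of the others depend on the detection filter and carry no weight in that count. The median was 0.51 when each of those others was replaced by its bound. The part of small and ribosomal RNAs in the ratios of the Krüppel-like factors was not tested.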

How the data were processed

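Total RNA of both cell lines was extracted with Trizol and labelled with biotin for Illumina arrays, per the labels. The authors deposited, per the file headers, a raw average bead signal intensity and a detection p-value for each of 47323 probes on each array. The summarising software is not given in the sources used here. A second deposited table holds intensity values that were processed in an unstated way. Its columns share a median of 10.6 and values down to -28.6, so it was read as linear, background-subtracted and quantile-normalized, and served as an alternative only.

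The raw values went through neqc of limma 3.58.1 (R 4.3.3), which fits the background from the detection p-values, adds an offset of 16, quantile-normalizes and takes log2. Later steps used Python 3.11.15, pandas 2.3.3 and NumPy 2.4.6. Probes were named from the platform annotation of GEO with symbols brought up to date through RefSeq: 30113 probes had 1 gene, 8 several and 17202 were not named here. The brightest probe over both arrays (mean log2 signal) stood for a gene. Genes were named by rule: all members, and from each of 12 lists up to 3 genes past 2-fold, or the 1 farthest from 0. Other list genes, the promoter motifs and the neighbouring genes were picked with their values in view. The members and lists were chosen with earlier results of these data known. Where 1 array lacked detection, the bound is the bright signal against the higher of the lowest detected signal on the other array and the probe's own. The steps were tested on simulated data with folds set only in genes brighter than KLF3, KLF4 and KLF10, so that test does not cover dim members. With 1 array per group, the number of arrays limits the precision.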

Additional observations from a re-analysis of the deposited data

How the results depend on the processing

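The count of 1 member past 2-fold higher and 0 past 2-fold lower was found again under 7 alternatives. Of these, only no background correction and an offset of 50 changed the ratios of all detected members. The others were a detection p-value under 0.05, detection on both arrays, no detection filter, the median of a gene's probes, and bounds for KLF3 and KLF10. They left the ratio of KLF2 as it was and could hardly change the count. With scaling to equal medians 2 members were higher. In the authors' processed values 3 were higher and 1 lower, and with a size rule of 1.5-fold 3 were higher and 1 lower. For the detected members the median log2 ratio was 0.62, and 0.25 without background correction. Over all genes the counts past 2-fold were 410 higher and 211 lower, 108 and 28 without background correction, 213 and 70 with an offset of 50, and 628 and 463 in the authors' values. For 21 named genes 166 recalculations were made, and 13 values moved by more than 0.329, the SD of 1 probe. No 2-fold call changed sign, but genes under 2-fold could not count as reversed. A change of the detection filter alone leaves the ratio of a gene as it was, so these counts say little about stability. The 2-fold call was lost for SIN3B (0.59), FKBP5 (-0.84) and KLF15 (0.41) without background correction, and for SIN3B (0.88) and KLF15 (0.70) with an offset of 50. Low signal over background limits KLF3, KLF4, KLF5, KLF10 and KLF16. No paired analysis was possible because each group held 1 array, and leaving out an array leaves no comparison.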

Other observations

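Of 18 reported target genes of the family 16 had a probe. Of these, 8 were detected, 6 of them on both arrays, with a median log2 ratio of 0.34. Among the 8, 1 was past 2-fold higher and none past 2-fold lower. Above 0 lay 6 of the 8, against 46.6% of all detected genes. CDKN1A and S1PR1 passed the detection filter through the array where each was higher, so their directions carry no weight in that count. ENG, the TGF-beta co-receptor endoglin and a reported target of KLF6, was 2.66-fold higher, with raw signals of 827.4 in radiation-adapted cells and 370.2 in wild type cells. CDKN1A, a cell cycle inhibitor reported as a target of KLF4 and KLF6, was detected in radiation-adapted cells alone and was at least 1.66-fold higher. CCND1, a reported target of KLF5, gave 15916.3 in radiation-adapted cells and 10945.9 in wild type cells (0.48), while KLF5 was not detected. S1PR1, a reported target of KLF2, was detected in wild type cells alone, with 146.1 in radiation-adapted cells and 164.1 in wild type cells. As a bound it was only at least 1.08-fold lower. The KLF2 targets THBD and NOS3 were not detected.

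The 10 detected protein-coding genes nearest to KLF2 on chromosome 19, 5 on each side in RefSeq order, had a median log2 ratio of 0.13, ran between -0.47 and 0.90, and none was past 2-fold. For KLF13 on chromosome 15 the median of the 10 nearest was 0.08, ranging between -0.79 and 0.53, with none past 2-fold. For KLF6 on chromosome 10 it was 0.09, and 2 of 10 neighbours were past 2-fold higher by measured ratio, AKR1C3 (2.47, at least 2.57-fold since it was not detected in wild type cells) and IDI1 (1.16). For KLF3 on chromosome 4 and KLF9 on chromosome 9 the medians were 0.07 and -0.03, with none past 2-fold. For KLF10 on chromosome 8 it was -0.29, with 2 of 10 above 0.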
